A study of Mus musculus with 12 samples.

Results

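Metallothioneins are small, cysteine-rich proteins that bind zinc and copper, and all 4 members of the mouse family annotated here (Mt1, Mt2, Mt3 and Mt4) were followed through 12 bulk RNA-seq libraries of mouse ear skin. The table holds 24532 genes, and the members were taken by gene symbol, 4 of 4 being found. The family was chosen by an earlier result in these same data, namely that the response of Mt4 to MC903 differed by housing. The values of Mt4 and the differences of responses of all members are therefore given as a description with no test, while the other comparisons of Mt1, Mt2 and Mt3 were tested. MC903, also named calcipotriol, is a vitamin D analogue, and putting it on mouse ears inflames the skin.

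The 4 groups held 3 libraries each. Housing was either specific-pathogen-free (abbreviated SPF) or germ-free (GF), and the ear skin received ethanol, the vehicle, or MC903. The labels mention 5 applications, in wording that leaves unclear whether these were daily or in all. SPF libraries are numbered 1, 2 and 3 and GF libraries 1, 4 and 5 within each treatment. The strain is labelled C57BL/6 in 9 libraries, C57BL/7 in GF MC903 4, C57BL/8 in GF ethanol 5 and C57BL/9 in GF MC903 5. The labels give no genetic change and no age, and do not state whether each replicate is another mouse. The p-values therefore reflect only how these libraries spread, which may be technical. The RNA is from whole skin, in which fewer cells of a type and less RNA per cell cannot be told apart.

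As background, Mt1 and Mt2 are made in most tissues and are induced by zinc, cadmium, glucocorticoids, oxidants and inflammatory cytokines. The zinc-sensing transcription factor MTF1 binds metal response elements in their promoters and raises their transcription when free zinc rises. The proteins buffer zinc and copper and can take up reactive oxygen. Mt3 is known mainly from the brain, where it was found as a growth inhibitory factor. Mt4 is known from differentiating stratified squamous epithelia, among them the skin, the tongue and the upper digestive tract.

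The 4 genes lie side by side on the plus strand of chromosome 8 (GRCm38, the mm10 build of the files, RefSeq coordinates), within 43124 bp. Mt4 spans chr8:94137204-94139031, Mt3 chr8:94152607-94154148, Mt2 chr8:94172618-94173567 and Mt1 chr8:94178883-94180327. Each has 3 exons in the GENCODE transcript examined, and no pair of these transcripts shares a run of 31 bases, the longest shared run being 27 bases between Mt1 and Mt3. GENCODE places the antisense gene Gm45774 over 749 bases of Mt2, and use of the strand in counting is not given in the sources used here. Reads of these 2 genes may therefore not be separated.

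The promoters are shown because the family members moved differently, and because metal response elements are the best known control of Mt1 and Mt2. Each line holds the 250 bases before the start used in the RefSeq promoter set (GRCm38.p6, plus strand, 5′ to 3′). For Mt1 that start lies after the gene start given above. Capitals mark matches on either strand to the metal response element cores TGCACNC or TGCGCNC.

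Mt4, chr8:94136954-94137203: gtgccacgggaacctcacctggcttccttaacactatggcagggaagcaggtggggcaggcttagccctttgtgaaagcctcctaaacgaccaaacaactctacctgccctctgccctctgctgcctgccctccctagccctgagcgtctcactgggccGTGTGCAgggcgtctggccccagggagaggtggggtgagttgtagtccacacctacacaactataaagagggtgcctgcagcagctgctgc
Mt3, chr8:94152357-94152606: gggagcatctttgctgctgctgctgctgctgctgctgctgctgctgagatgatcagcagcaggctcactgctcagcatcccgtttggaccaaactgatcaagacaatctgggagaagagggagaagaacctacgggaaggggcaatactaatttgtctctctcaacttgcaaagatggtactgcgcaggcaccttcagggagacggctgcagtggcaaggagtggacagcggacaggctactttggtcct
Mt2, chr8:94172368-94172617: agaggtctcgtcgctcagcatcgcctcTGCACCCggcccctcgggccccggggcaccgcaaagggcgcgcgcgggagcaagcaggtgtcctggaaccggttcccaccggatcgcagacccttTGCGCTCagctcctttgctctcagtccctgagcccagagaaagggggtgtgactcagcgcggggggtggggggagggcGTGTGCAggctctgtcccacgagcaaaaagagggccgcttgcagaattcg
Mt1, chr8:94178839-94179088: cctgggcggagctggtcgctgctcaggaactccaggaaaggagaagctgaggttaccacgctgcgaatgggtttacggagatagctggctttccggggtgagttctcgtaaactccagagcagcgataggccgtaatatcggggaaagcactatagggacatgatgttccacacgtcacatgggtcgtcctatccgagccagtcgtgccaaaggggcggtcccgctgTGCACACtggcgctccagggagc

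In these windows the core matched 3 times for Mt2, 1 time for Mt1 and 1 time for Mt4, and it had 0 matches for Mt3. Of 32841 RefSeq promoters, 21.4% held at least 1 match in the same 250 bases and 1.26% held 3 or more. With the 50 bases after the start added, the counts were 4 for Mt2, 3 for Mt1, 1 for Mt4 and 1 for Mt3, and 25.7% of promoters held at least 1, so the counts of Mt1 and Mt2 are closer in the longer window. Most of the Mt1 window lies inside the annotated gene span, because the promoter set uses a later start. Mt1 cores at offsets 2 and 20 from that start fall just past the window. The Mt1 counts, for this and the other elements, therefore depend on where its window was placed. They are not directly comparable with those of Mt2. Other elements were searched on both strands. The antioxidant core TGACNNNGC and the AP-1 element TGANTCA each matched 1 time, before Mt2, where the matches overlap; they were found in 10.2% and 6.75% of promoters. The palindromic glucocorticoid response element matched 1 time, in the Mt1 window, and was found in 0.387% of promoters. A match describes letters in a window and does not show binding, and none of these motifs was measured here.

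Library totals ran from 36358294 to 48225425 estimated counts, and all 4 members passed the filter on low counts, among 16466 genes tested. Levels are CPM, counts relative to the TMM-scaled library total, tests are edgeR's quasi-likelihood test with Benjamini-Hochberg adjustment over all genes tested, and a gene passed at an adjusted p under 0.05. TMM assumes that most genes keep their share of RNA. Scaling by library totals moved the median log2 change of all genes from -0.10 to -0.64 in the MC903 response averaged over housing, and the share of calls that were higher from 46.5% to 23.4%. The same share went from 47.4% to 23.6% for the response in SPF skin, from 48.8% to 22.4% in GF skin, from 52.9% to 39% for housing with ethanol and from 45.6% to 59% for the difference of responses. Values on library totals are therefore given beside the main ones.

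Mt1 and Mt2, the broadly expressed and inducible members, rose with MC903 under both housings, and reached their highest level in GF skin with MC903. In SPF ethanol libraries Mt1 stood at 109.6, 153.2 and 107.7 CPM, and in SPF MC903 libraries at 321.1, 424.5 and 283.9 CPM. In GF ethanol libraries it stood at 131, 170.6 and 149.1 CPM, and in GF MC903 libraries at 645.6, 601.2 and 553.3 CPM. Every MC903 library was above every ethanol library of either housing, and every GF MC903 library was above every SPF MC903 library. The ethanol groups overlapped.

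Averaged over housing, MC903 raised Mt1 3.33-fold (log2 change 1.74, SE 0.12, n = 6 against 6, edgeR adjusted p = 2.6e-08). In that comparison 37.1% of all genes tested were called higher and 42.6% lower, so a call alone sets no gene apart. On library totals the log2 change was 1.19 (SE 0.11, edgeR adjusted p = 2.6e-07). The response was 2.78-fold in SPF skin (log2 1.47, SE 0.17, edgeR adjusted p = 4.3e-06), where 35.0% of genes were called higher. In GF skin it was 3.99-fold (log2 2.0, SE 0.17, edgeR adjusted p = 5.2e-07), where 33.4% were called higher.

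Mt2 followed the same order of groups at a lower level. Its SPF ethanol libraries stood at 78.05, 109.1 and 88.67 CPM and its SPF MC903 libraries at 251.3, 279 and 210.9 CPM. Its GF ethanol libraries stood at 96.85, 130.1 and 107 CPM and its GF MC903 libraries at 498.1, 497.5 and 401.8 CPM. As for Mt1, the MC903 and ethanol libraries did not overlap and neither did GF and SPF libraries with MC903. Averaged over housing MC903 raised Mt2 3.35-fold (log2 1.75, SE 0.11, edgeR adjusted p = 9.5e-09), and by 1.20 on the log2 scale with library totals (SE 0.09). The log2 response was 1.43 in SPF skin (SE 0.15, edgeR adjusted p = 2.3e-06) and 2.07 in GF skin (SE 0.15, edgeR adjusted p = 1.8e-07).

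**Figure D1:**
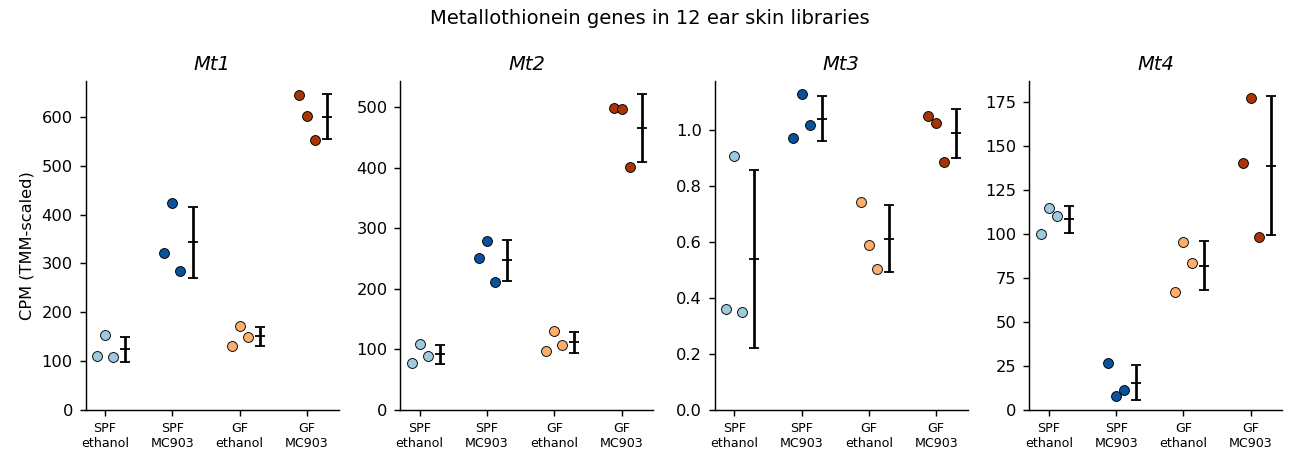
Level of each metallothionein (y axis, CPM after TMM scaling, a separate scale for each gene) in the 4 groups (x axis); points are libraries and bars give the mean ± SD, n = 3. Mt1 and Mt2 are highest in GF skin with MC903, Mt4 is lowest in SPF skin with MC903, at 8.075 to 26.74 CPM, and Mt3 is at or under 1.131 CPM throughout.

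Mt1 and Mt2 were higher in GF than in SPF libraries of MC903-treated skin. With MC903, GF skin held 1.75-fold more Mt1 (log2 0.81, SE 0.16, edgeR adjusted p = 0.0018) and 1.89-fold more Mt2 (log2 0.91, SE 0.15, edgeR adjusted p = 3.9e-04), in a comparison where 20.8% of genes were called higher. Among short genes of 300 to 800 bases, like the members, 44.9% were called higher and 6.73% lower (median log2 0.39). With the trend over gene length removed, the log2 differences with MC903 were 0.35 for Mt1 (edgeR adjusted p = 0.038) and 0.46 for Mt2 (edgeR adjusted p = 0.0071). With ethanol the log2 differences were 0.28 for Mt1 (SE 0.16, edgeR adjusted p = 0.23) and 0.28 for Mt2 (SE 0.15, edgeR adjusted p = 0.2), neither passing, against 22.0% of genes called in either direction. Averaged over treatment, GF skin was higher by 0.54 for Mt1 (SE 0.12, edgeR adjusted p = 0.0022) and by 0.60 for Mt2 (SE 0.10, edgeR adjusted p = 6.3e-04), where 23.1% of genes were called higher. With the length trend removed, this averaged value of Mt1 was 0.18 and its call was lost (edgeR adjusted p = 0.12). The GF response exceeded the SPF response by 0.52 for Mt1 (SE 0.23) and by 0.64 for Mt2 (SE 0.21); these carry no test, since the family was chosen on that contrast.

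Mt4, the member known from differentiating squamous epithelium, stood lower with MC903 than with ethanol in SPF skin and higher in GF skin. Its SPF ethanol libraries stood at 99.83, 114.5 and 110.2 CPM, and its SPF MC903 libraries at 26.74, 8.075 and 11.45 CPM. Its GF ethanol libraries stood at 67.09, 95.03 and 83.33 CPM, and its GF MC903 libraries at 140.2, 177.3 and 98.32 CPM. The SPF MC903 libraries lay below all others, and every GF MC903 library lay above every GF ethanol library, the gap at its narrowest being between 95.03 and 98.32 CPM. On library totals the GF groups overlapped, with GF MC903 5 at 82.08 CPM and GF ethanol 4 at 109.8 CPM. SPF MC903 1 stood above the other SPF MC903 libraries.

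In SPF skin Mt4 was 6.99-fold lower with MC903 (log2 change -2.81, SE 0.36), and in GF skin 1.69-fold higher (log2 0.76, SE 0.34). The responses differed by 3.57 on the log2 scale (SE 0.49), an 11.8-fold difference. Without SPF MC903 1 this was 4.23 (SE 0.32) and the SPF response -3.47 (SE 0.26). With MC903, GF skin held 8.96-fold more Mt4 than SPF skin (log2 3.16, SE 0.37; 3.83 without SPF MC903 1, SE 0.27). With ethanol, GF skin held slightly less (log2 -0.40, SE 0.33). These values chose the family and are a description. On library totals the SPF response was -3.37, the GF response 0.25 and their difference 3.63, and with the trend over gene length removed the GF response turned to -0.41 (SE 0.33). Both the size and the sign of the GF response therefore depended on the processing.

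The averages are made of these same values and are likewise a description. Averaged over treatment, Mt4 was 2.6-fold higher in GF skin (log2 1.38, SE 0.24), a mean of -0.40 with ethanol and 3.16 with MC903. Averaged over housing, its MC903 response was -1.02 (SE 0.24), a mean of -2.81 and 0.76.

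Mt3, known mainly from the brain, was near the lower limit of what was counted. Its libraries held between 19 and 44 estimated counts. Its SPF ethanol libraries stood at 0.3609, 0.9073 and 0.3504 CPM and its SPF MC903 libraries at 0.9738, 1.131 and 1.02 CPM. Its GF ethanol libraries stood at 0.7419, 0.5914 and 0.5039 CPM and its GF MC903 libraries at 1.05, 1.028 and 0.8881 CPM. SPF ethanol 2 was well above the other SPF ethanol libraries, and with GF MC903 5 below it the ethanol and MC903 libraries overlapped.

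The averaged MC903 response of Mt3 was 0.82 (SE 0.25, edgeR adjusted p = 0.0087), but 0.28 on library totals (SE 0.25, edgeR adjusted p = 0.3). The SPF response was 0.96 (SE 0.35, edgeR adjusted p = 0.027), and 0.39 on library totals (SE 0.35, edgeR adjusted p = 0.32). The SPF call was also lost without SPF ethanol 1 (log2 0.74), SPF ethanol 3 (0.72) or SPF MC903 2 (0.89), with edgeR adjusted p between 0.072 and 0.11. Without SPF ethanol 2 the SPF response was 1.54. The GF response was 0.69 (SE 0.35, edgeR adjusted p = 0.1), and it passed without SPF ethanol 2 (0.69, SE 0.25, edgeR adjusted p = 0.03). The housing difference averaged over treatment was 0.06 (SE 0.25, edgeR adjusted p = 0.87). The SPF response stayed above 0 under all settings run (0.16 to 1.54), but its call did not hold under all of them.

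The members are short genes, and short genes as a class moved with MC903. The lengths implied by the ratio of count to FPKM were 554 bases for Mt1, 569 for Mt2, 558 for Mt3 and 400 for Mt4. Of 773 tested genes with implied lengths from 300 to 800 bases, 69.5% were called higher and 10.2% lower in the averaged MC903 response, with a median log2 change of 0.96. Over all genes tested these values were 37.1%, 42.6% and -0.10. Averaged over treatment, 51.2% of the short genes were called higher in GF skin and 3.36% lower, with a median of 0.33. Over all genes tested these values were 23.1%, 21.9% and 0.01. In the difference of responses the median of the short genes was 0.14, against 0.02 over all genes tested.

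With the trend over gene length removed, the averaged MC903 responses of Mt1 and Mt2 were smaller and still passed (log2 0.83, SE 0.09, edgeR adjusted p = 2.0e-06, and 0.85, SE 0.08, adjusted p = 7.6e-07). The averaged housing difference of Mt2 was 0.23 and still passed (edgeR adjusted p = 0.041), unlike that of Mt1. With MC903 the housing difference was 0.35 for Mt1 (edgeR adjusted p = 0.038) and 0.46 for Mt2 (edgeR adjusted p = 0.0071). Mt3's averaged response became -0.08 (edgeR adjusted p = 0.78). For Mt4 the SPF response became -3.71 (SE 0.37), the GF response turned to -0.41 (SE 0.33) and their difference stayed at 3.30. Whether RNA integrity or library preparation differed between the groups was not tested.

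**Figure D2:**
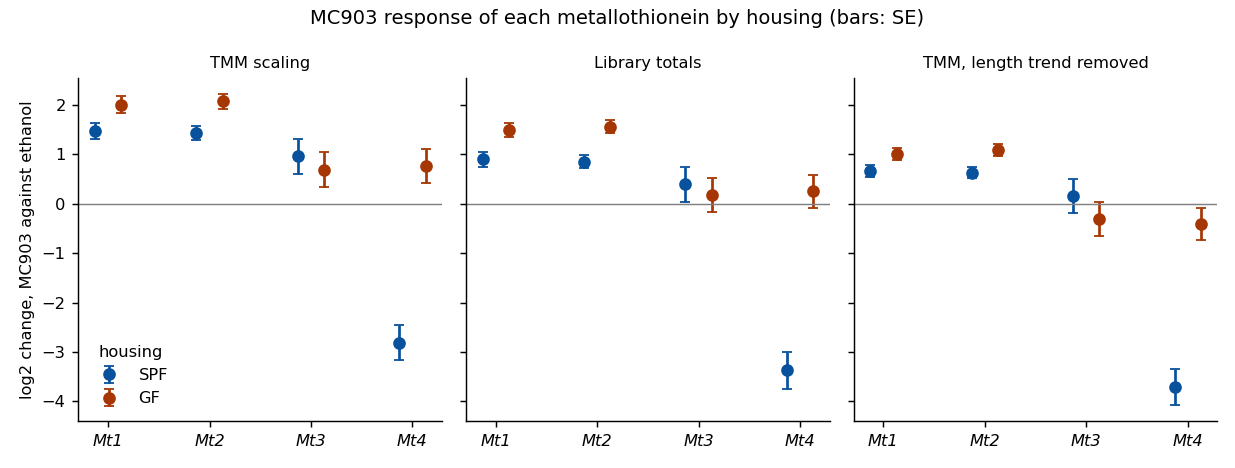
MC903 response of each member (y axis, log2 change, error bars ± SE) in SPF and GF skin under TMM scaling, library totals and removal of the length trend. The responses of Mt1 and Mt2 stay above 0 under all 3, the SPF response of Mt4 stays between -2.81 and -3.71, and the GF response of Mt4 goes from 0.76 to -0.41.

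Levels of different genes were compared on the deposited FPKM scale, which divides by length. In SPF ethanol skin Mt4 was the highest member at 332.4 ± 18.11 FPKM (SD, n = 3), with Mt1 at 273.3 ± 52.15 and Mt2 at 198.4 ± 30.47. By rank among the 16466 genes tested, Mt4 was between 163rd and 176th in those libraries. In SPF MC903 skin Mt4 was at 31.99 ± 20.88 FPKM, ranked 1423rd to 4156th, below Mt1 at 510.2 ± 97.57 and Mt2 at 358.4 ± 43.48. In GF MC903 skin Mt1 was at 896.5 ± 65.18, Mt2 at 678.2 ± 77.69 and Mt4 at 286.9 ± 80.77 FPKM. Mt3 had a group mean of at most 1.553 FPKM.

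Mt4 made up 37.9% to 44% of the summed FPKM of the family in SPF ethanol libraries, 29.1% to 31.3% with GF ethanol, 12.6% to 18.4% with GF MC903 and 1.58% to 6.13% with SPF MC903. These 4 ranges do not overlap. The family sum was 731 to 912 FPKM in SPF ethanol and 766 to 1033 in SPF MC903 libraries, which overlap, while GF went from 697 to 899 with ethanol to 1626 to 1987 with MC903. The ratio of Mt1 to Mt2 hardly changed, at 1.24 to 1.56 over all libraries. Over the 12 libraries Mt1 and Mt2 correlated at Pearson r = 0.996 on log2(CPM + 1), whereas Mt1 and Mt4 gave -0.127 and Mt2 and Mt4 gave -0.078. Libraries of 1 group share housing and treatment, so these coefficients are a description.

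**Figure D3:**
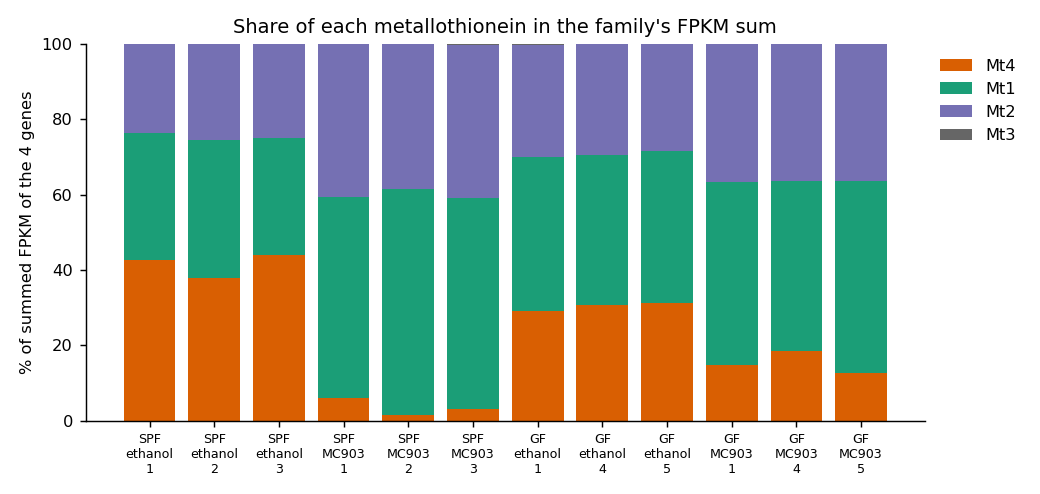
Share of each member in the summed FPKM of the 4 metallothioneins (y axis, percent) in each library (x axis). Mt4 takes 37.9% to 44% in SPF ethanol libraries and 1.58% to 6.13% in SPF MC903 libraries, and Mt3 is too low to be seen.

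Mtf1 and genes listed with it for metal-responsive transcription were read next. Of 5 genes on that list, 3 rose and 2 fell in the averaged response (median log2 0.24, against -0.10 over all genes), and 2 and 3 did so on library totals. With TMM, 37.1% of all genes were called higher and 42.6% lower. Those that fell were Gclc and Slc39a10, an importer that MTF1 holds down rather than raises. Mtf1 itself went from 25.3 to 29.6 CPM in SPF and from 18.4 to 21.8 CPM in GF skin, an averaged change of 0.24 (SE 0.07, edgeR adjusted p = 0.011) that was -0.31 on library totals (edgeR adjusted p = 0.0024). Slc30a1, a zinc exporter and MTF1 target, rose from 62.9 to 118 CPM in SPF and from 53.5 to 99.7 CPM in GF skin (log2 0.90, SE 0.05, edgeR adjusted p = 2.3e-09). Sepw1, a selenoprotein gene, rose (log2 1.23, SE 0.08) and Gclc, which begins glutathione synthesis, fell (log2 -0.59, SE 0.06). In the difference of responses their lowest edgeR adjusted p was 0.13, for Gclc, while 17.0% of all genes passed and 9.26% were called lower.

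Among 12 tested zinc importers of the ZIP family, 5 rose and 5 fell (median 0.05), near the 37.1% and 42.6% of all genes that did. On library totals the counts were 3 and 8. Slc39a4, the intestinal zinc importer that is mutated in acrodermatitis enteropathica in humans, went from 5.92 to 162 CPM in SPF and from 8.69 to 163 CPM in GF skin (log2 4.50, SE 0.23, edgeR adjusted p = 2.1e-09). Slc39a2 also rose (log2 2.71, SE 0.08), and Slc39a10, an importer that MTF1 holds down, fell (log2 -0.57, SE 0.06). Slc39a14, an importer induced in inflammation, varied widely: SPF MC903 libraries stood at 34.6, 2.03 and 3.36 CPM and GF MC903 libraries at 0.681, 0.528 and 0.544 CPM. Its averaged call (log2 -2.02, SE 0.77, edgeR adjusted p = 0.029) was lost without any one of 7 libraries, with adjusted p between 0.052 and 0.069, and with the length trend removed.

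Of 8 tested zinc exporters of the ZnT family 5 rose and 1 fell (median 0.27), while 37.1% and 42.6% of all genes did. On library totals the counts were 3 and 4. Slc30a2 rose (log2 1.36, SE 0.16), with a smaller response in GF skin (difference -1.10, SE 0.31, edgeR adjusted p = 0.031), a call that was lost without any one of 8 libraries and with the replicate number as a block. Slc30a10, a manganese exporter, was at 0 in all ethanol libraries and at 0.3, 0.951 and 0.823 CPM in SPF MC903 and 2.84, 3.42 and 2.18 CPM in GF MC903 libraries. Of 15 tested copper genes, 6 rose and 5 fell, near those shares over all genes, and 4 and 10 on library totals. Atox1, the copper chaperone for the secretory pathway, was at 121, 138 and 105 CPM in SPF MC903 and 243, 264 and 229 CPM in GF MC903 libraries, with ethanol libraries between 83.6 and 113. Its response was larger in GF skin (difference 0.80, SE 0.15, edgeR adjusted p = 0.0033). Cox17, which carries copper to cytochrome oxidase, rose (log2 1.32, SE 0.09).

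Of 11 tested genes for iron handling and metal withholding, 8 rose and 2 fell (median 0.25), while 37.1% and 42.6% of all genes did. On library totals the counts were 4 and 6. The calprotectin subunits S100a8 and S100a9, which bind zinc and manganese outside cells, rose most (log2 5.70, SE 0.29, and 5.67, SE 0.28). Slc40a1, the iron exporter ferroportin, fell from 52.3 to 12.5 CPM in SPF and from 44.7 to 16.5 CPM in GF skin (log2 -1.75, SE 0.05). Its fall was smaller in GF skin (difference 0.64, SE 0.11, edgeR adjusted p = 0.0018).

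Genes for the other known inducers of Mt1 and Mt2 moved apart from each other. Of 8 oxidant-responsive genes, 6 rose and 1 fell in the averaged response (median 0.86), while 37.1% and 42.6% of all genes did. On library totals the counts were 5 and 2. In the difference of responses 5 of the 8 were lower in GF skin and 0 higher (median -0.62, against 0.02 over all genes). Over all genes 9.26% were called lower and 7.75% higher. Srxn1, which repairs oxidised peroxiredoxin, rose from 39.1 to 399 CPM in SPF and from 35.8 to 135 CPM in GF skin (difference -1.44, SE 0.14, edgeR adjusted p = 9.4e-05). Hmox1, haem oxygenase, rose by 2.27 on average (SE 0.07), with a difference of -0.66 (SE 0.13, edgeR adjusted p = 0.005). Nqo1 had a difference of -1.05 (SE 0.19, edgeR adjusted p = 0.0032). The part of oxidant-responsive control in the values of Mt1 and Mt2 was not tested.

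Of 11 glucocorticoid targets, 9 fell and 1 rose (median -1.14), while 42.6% and 37.1% of all genes did. On library totals 10 fell and 0 rose. Zbtb16 (log2 -2.96, SE 0.27) and Klf9 (log2 -2.58, SE 0.15) were among those that fell, as was Nr3c1, the receptor gene (log2 -1.56, SE 0.07). Of 12 acute phase and STAT3 genes, 8 rose and 2 fell (median 1.52), and 7 and 3 on library totals. Saa1, serum amyloid A, rose by 5.88 (SE 0.38) and Osm, the cytokine oncostatin M, by 3.54 (SE 0.27). In the difference of responses 1 of the 12 was higher in GF skin and 1 lower, while 7.75% and 9.26% of all genes were. Timp1, a protease inhibitor, had a smaller response in GF skin (difference -0.95, SE 0.22, edgeR adjusted p = 0.011). Il6ra, the interleukin-6 receptor, fell less in GF skin (difference 0.86, SE 0.21, edgeR adjusted p = 0.016), a call lost with the replicate number as a block.

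**Figure D4:**
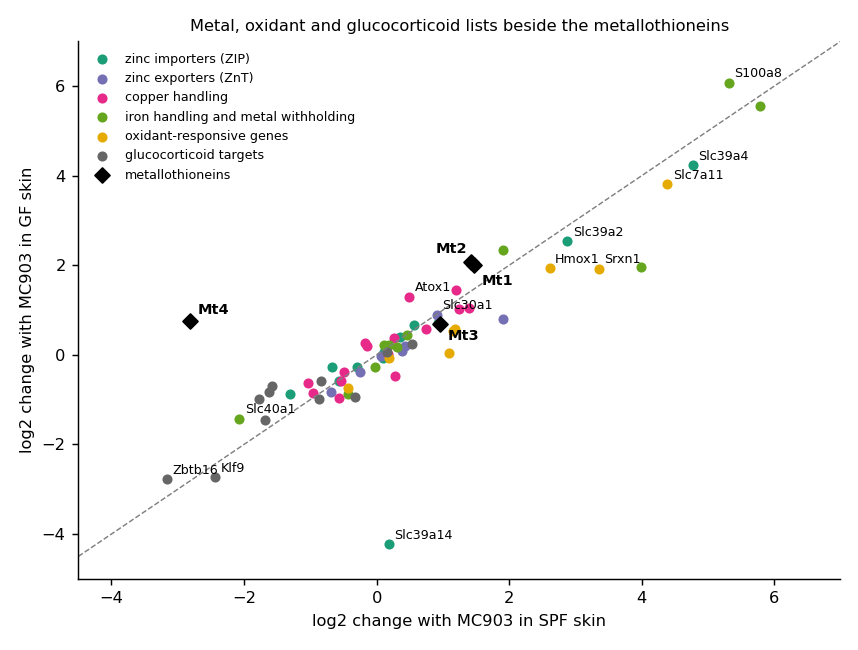
MC903 response in SPF skin (x axis, log2 change) against that in GF skin (y axis, log2 change) for genes of 6 lists and for the 4 metallothioneins; the dashed line marks equal responses. Mt4 lies far above the line at -2.81 and 0.76, and Srxn1 lies below it at 3.35 and 1.92; Slc30a10 is left out because its ethanol libraries are at 0.

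Keratinocyte markers are given beside Mt4, since it is known from that cell type. The 14 genes in the table that mark differentiating keratinocytes were all above 0 in every group, and their summed level was 34163 to 38030 CPM in SPF ethanol, 47651 to 58504 in SPF MC903, 36863 to 43271 in GF ethanol and 85065 to 99073 in GF MC903 libraries. On library totals the SPF sums overlapped, at 41215 to 46918 with ethanol and 39833 to 48769 with MC903, and the GF sums were 44545 to 50009 and 71013 to 82127. The sum in GF MC903 skin was mostly Krt2 and Krt10, at 36759 and 20795 CPM, against 4716 and 8709 CPM in SPF MC903 skin. With MC903, 4 of the 14 were called higher in GF skin and 5 lower, while 20.8% and 20.9% of all genes were. In the averaged response 9 of the 14 rose and 2 fell, while 37.1% and 42.6% of all genes did, and 8 and 4 on library totals. In the difference of responses 3 were higher in GF skin and 5 lower, while 7.75% and 9.26% of all genes were; on library totals the counts were 4 and 3. Over the left-out libraries 3 to 4 were higher and 3 to 5 lower, with 3 lower without SPF ethanol 1, SPF MC903 3, GF ethanol 1 or GF MC903 1.

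Krt2, a keratin of the upper epidermis, stood at 11424, 10067 and 12076 CPM in SPF ethanol and 7255, 2924 and 3969 CPM in SPF MC903 libraries. It stood at 11872, 14605 and 12905 CPM in GF ethanol and 36880, 41627 and 31771 CPM in GF MC903 libraries. As with Mt4, SPF MC903 libraries were below all others, SPF MC903 1 was the highest of them, and GF MC903 libraries were above GF ethanol libraries. The difference of responses was 2.73 for Krt2 (SE 0.37, edgeR adjusted p = 6.2e-04) and 1.16 for Krt10, a type I keratin of suprabasal cells (SE 0.20, edgeR adjusted p = 0.0025). Krt1, the type II partner of Krt10, went the other way, rising from 1644 to 11644 CPM in SPF and from 1878 to 6212 CPM in GF skin (difference -1.10, SE 0.19, edgeR adjusted p = 0.0022). Cdsn, corneodesmosin, rose by 2.86 on average (SE 0.07), with a difference of -0.92 (SE 0.12, edgeR adjusted p = 5.6e-04).

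Other cell types moved with MC903 as well, in a response where 37.1% of all genes were called higher and 42.6% lower. The 8 basal keratinocyte markers summed to 12202 to 15806 CPM with ethanol and 29165 to 33190 CPM with MC903, with 4 higher and 4 lower, and 1 and 6 on library totals. Most of the rise in the sum was Krt14, from 4222 to 24020 CPM in SPF and from 5306 to 19869 CPM in GF skin. All 5 fibroblast, all 5 muscle and all 5 Schwann cell markers fell under both scalings, as did 4 of 5 cartilage markers. Of adipocyte and of endothelial markers 3 of 5 fell, and 5 of 5 on library totals. Of hair follicle markers 3 of 7 rose and 1 fell, and their sum was 22.9 to 33.5 CPM with ethanol, 2299 to 3789 in SPF MC903 and 1095 to 1112 in GF MC903 libraries. Tchh made up most of that sum with MC903, with means of 2719 CPM in SPF and 1018 CPM in GF skin. Of 5 macrophage markers 3 rose and 1 fell, of 4 tested neutrophil markers 4 rose, and of 5 melanocyte markers 2 rose and 1 fell. On library totals the direction turned for macrophages (1 higher, 2 lower) and melanocytes (0 higher, 4 lower), and 3 neutrophil markers were higher. Of the brain markers set beside Mt3, 3 of 4 tested rose (2 rose and 1 fell on library totals), and Tubb3 made up most of their sum, at 10.8 CPM in SPF ethanol and 423 CPM in SPF MC903 skin. The part of these shifts in the values of the metallothioneins was not tested.

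The genes next to the cluster were read in the same way. Before Mt4 lie Nudt21, Ogfod1 and Bbs2, and after Mt1 lie Nup93, Mir138-2 and Slc12a3. In the averaged response Nudt21 rose by 0.99 (SE 0.06), Nup93 rose by 1.10 (SE 0.05) and Bbs2 fell by 0.99 (SE 0.08). Ogfod1 changed by 0.24 (SE 0.07, edgeR adjusted p = 0.0055) with TMM and by -0.31 on library totals (edgeR adjusted p = 0.0013). In the difference of responses their edgeR adjusted p ran from 0.19 for Bbs2 to 0.79 for Ogfod1, with differences between -0.07 and 0.31. Mir138-2 had 0 counts and Slc12a3 at most 13 in a group, and neither was tested.

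For each of Mt1, Mt2 and Mt4 the 5 genes with the most similar pattern over the 12 libraries were taken from 14121 genes by Pearson r of log2(CPM + 1). For Mt1 these were Mt2 (0.996), D8Ertd738e, Atg101, Cmc2 and Abt1, the last at 0.992. For Mt2 they were Mt1, Pelp1, Cmc2, 2010107E04Rik and Polr2j, the last at 0.989. D8Ertd738e, for one, stood at 57.4 to 89.5 CPM with ethanol, 127 to 166 CPM in SPF MC903 and 199 to 201 CPM in GF MC903 libraries.

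For Mt4 they were Gpr157 (0.985), Slurp1 (0.981), Myo18a (0.975), Them5 (0.972) and Abhd12b (0.969). Slurp1 encodes a secreted keratinocyte protein whose human gene is mutated in a palmoplantar keratoderma, mal de Meleda. It stood at 111, 99 and 100 CPM in SPF ethanol, 29.1, 11.1 and 14.2 in SPF MC903, 112, 127 and 118 in GF ethanol and 159, 171 and 123 CPM in GF MC903 libraries. Them5, an acyl-CoA thioesterase, went from 134, 144 and 155 CPM to 48.9, 30.1 and 31.7 in SPF skin and from 146, 176 and 148 to 232, 235 and 218 CPM in GF skin. Both had their lowest libraries in SPF MC903, and SPF MC903 1 was again the highest of its group. All GF MC903 libraries were above the rest for Them5, but for Slurp1 GF MC903 5 (123 CPM) was below GF ethanol 4 (127 CPM). Gpr157 and Myo18a followed the order of the libraries over a narrow range, 26.7 to 43.8 CPM and 125 to 173 CPM. These genes were picked for likeness, so their difference between housings carries no test.

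**Figure D5:**
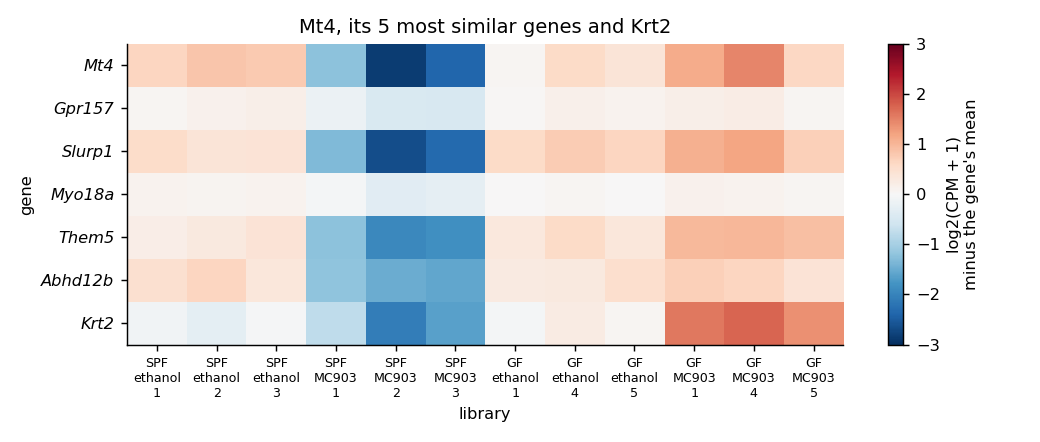
Level of Mt4, of its 5 most similar genes and of Krt2 (rows) in the 12 libraries (columns); colour gives log2(CPM + 1) minus the gene's mean. The 3 SPF MC903 libraries are the lowest in every row, and the change in Gpr157 and Myo18a is small beside that in Mt4, Slurp1, Them5, Abhd12b and Krt2.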

How the data were processed

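Estimated counts and FPKM per gene and library were deposited by the authors in 1 table on the mm10 build, per the file headers. Per the labels' protocols, RNA was prepared with RNeasy Fibrous Tissue and TruSeq v2 kits. The tools listed in the submitters' processing notes are StringTie 1.3.4d, HISAT2 2.1.0, Trimmomatic and bcl2fastq 2.20.0. Neither annotation nor strand setting was given in the sources used here. The estimated counts are whole numbers, so rounding changed nothing.

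From these counts, 1 edgeR 4.0.16 quasi-likelihood fit (R 4.3.3) covered the 12 libraries, using 1 term for each group, TMM scaling, and filterByExpr (minimum count 10, minimum total 15). TMM factors were 1.156 to 1.251 with ethanol and 0.806 to 0.836 with MC903, and the common dispersion was 0.0218. The SE is the size of the log2 change over the square root of F. 7 comparisons were read, and p-values were adjusted over all 16466 genes tested. FPKM served to compare genes per length and to derive gene length. Replicates differed by more than sampling noise (chi-square per degree of freedom 17.5 to 44.7 in 12 pairs), and all were kept. The code was tested on simulated data.

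The family, the 8 pathway lists and the 13 marker lists were chosen with earlier results of these data known. From each list, up to 3 genes with the largest averaged response and up to 2 with a difference of responses were named, at a mean of at least 1 CPM in some group; for marker lists other than differentiating keratinocytes mainly counts and sums are given. Flg was not among the analysed genes, and Selenow is listed as Sepw1. Alternatives were library totals, DESeq2 1.42.0 size factors and test, no filter, removal of the trend over length, the replicate number as a block, and leaving out each library. Sequences are from RefSeq (GRCm38.p6), with 4 of 4 members matched.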

Additional observations from a re-analysis of the deposited data

Results flagged for a closer look

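Mt4 was singled out because its libraries were ordered in opposite ways under the 2 housings on TMM-scaled CPM. Every SPF MC903 library was below every SPF ethanol library, and every GF MC903 library was above every GF ethanol library. The GF groups overlapped on the other scales. GF MC903 5 was below GF ethanol 4 on library totals (82.08 against 109.8 CPM) and on FPKM (204.8 against 275.5). The difference of responses was 3.57 on the log2 scale (SE 0.49), and it was not tested, since the family was chosen on it.

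The other results were singled out because edgeR's test of the difference of MC903 responses (GF minus SPF) passed. In that test 17.0% of all genes passed, 7.75% higher and 9.26% lower, so a call alone sets no gene apart. At most 2 genes of a list are named here. Among keratinocyte genes the difference of responses was 2.73 for Krt2 and 1.16 for Krt10. Of the 14 tested markers of differentiating keratinocytes, however, 3 were higher in GF skin and 5 lower, and 4 and 3 on library totals. Krt1 (-1.10) and Cdsn (-0.92) were among the lower ones. Among oxidant-responsive genes it was -1.44 for Srxn1 and -1.05 for Nqo1. Among metal genes it was 0.80 for Atox1, 0.64 for Slc40a1, 0.42 for Slc39a11, a zinc importer, -0.75 for Steap2, a metalloreductase, -1.10 for Slc30a2 and -2.01 for S100a7a, which encodes an antimicrobial S100 protein. Among inflammatory and hormone targets it was -0.95 for Timp1, 0.86 for Il6ra, the interleukin-6 receptor, and 0.89 for Per1, a clock gene. With the replicate number as a block the calls of 5 of these genes were lost, at an edgeR adjusted p of 0.055 for Slc39a11, 0.062 for Il6ra, 0.081 for Slc30a2, 0.053 for Steap2 and 0.079 for S100a7a. The call of S100a7a was also lost on library totals and with no filter (edgeR adjusted p = 0.053 in each). The calls of Slc30a2, Steap2, S100a7a and Per1 were lost as well without 1 of several libraries, with edgeR adjusted p of at most 0.1.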

How the results depend on the processing

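The averaged MC903 responses of Mt1 (0.83 to 1.83) and Mt2 (0.85 to 1.83) kept their direction and their call under every alternative run, as did the averaged housing difference of Mt2 (0.23 to 0.67). The untested averaged housing difference of Mt4 ran from 0.97 to 1.72. The difference of responses of Mt4 ran from 3.26 to 4.23. With the length trend removed, the averaged housing difference of Mt1 was 0.18, Mt2 with ethanol was -0.00, and the GF response of Mt4 was -0.41 (-0.42 with the replicate block as well). Mt3 depended on most choices. Its averaged response was 0.28 on library totals, -0.08 with the length trend removed and -0.03 with the block as well; its SPF response was 0.39, 0.16 and 0.24; its GF response was -0.31 with the trend removed and -0.30 with the block as well. Its housing differences with the trend removed were -0.30 averaged and -0.07 with ethanol. Leaving out each library in turn gave Mt3 ranges of -0.06 to 0.35 (averaged housing), 0.72 to 1.54 (SPF response), 0.57 to 0.85 (GF response), -0.04 to 0.78 (housing with ethanol) and -0.86 to -0.03 (difference of responses). The averaged responses of Mtf1 and Ogfod1 were -0.31 and -0.31 on library totals. The number of genes called for GF minus SPF with ethanol was 3616, 2134 with the length trend removed, and 1475 (without GF ethanol 4) to 3981 over the left-out libraries, with 2354 without SPF ethanol 2 and 2333 without SPF ethanol 3. Beyond the stated cases the cause was not tested.

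Replicate numbers were not taken to pair libraries: deviations of same-numbered libraries correlated at -0.1 to 0.18 in 6 pairs over 14122 genes, and the own number was the best match in 3. With the number as a block, which housing comparisons do not allow, the difference of responses of Mt4 was 3.72 and no member's call changed. The 19 to 44 counts of Mt3 limit its precision; counting error is small for the others.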
